A study of Mus musculus with 3 samples.

Results

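The genes of the microtubule system described here are the tubulins that build microtubules, the stathmins that bind tubulin dimers, the kinesins with their light chains, and the dyneins. They were chosen by gene symbol from a table of 35764 symbols, and 108 matched the names of these families. The cells were of the mouse line KPC78, from pancreatic ductal adenocarcinoma, with the genotype labelled WT. No treatment is named for it, and the series held 1 group of 3 libraries of polyadenylated RNA, replicates 1 to 3, called biological replicates. The stated aim of the series was to measure integrin subunits, and no second group was available, so levels were compared between genes inside each library. Expression is in TPM, a length-corrected share of all transcripts, so levels of different genes can be set side by side.

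Microtubules are hollow polymers of alpha and beta tubulin dimers. Gamma tubulin starts new microtubules at the centrosome, and stathmins hold dimers in reserve. Most kinesins walk towards the plus end and carry cargo, while a mitotic subset builds and drives the spindle of dividing cells. Cytoplasmic dynein-1 walks towards the minus end, dynein-2 works inside cilia, and axonemal dyneins beat motile cilia and sperm tails.

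The series as a whole gave libraries that summed to between 999728 and 999776 TPM. A gene is called detected here when it reached 1 TPM in every library. Of all symbols 32.6% were detected, and of the 19530 symbols annotated as protein-coding 55.4% were. Of 5 epithelial markers 4 were detected, with the keratin Krt18 at 1472 ± 31 TPM (SD, n = 3), while Epcam stood at 0.16 TPM. Of 4 mesenchymal markers 3 were detected, with Vim at 4744 ± 116 TPM (SD, n = 3). Each library is a bulk sample, so a low level cannot tell fewer expressing cells from less RNA per cell. The read depth behind TPM is not known, so no counting interval is given.

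Of the 108 genes 67 were detected, or 62.0%, with 13 of 19 tubulins, 1 of 4 stathmins, 33 of 46 kinesins and light chains, 19 of 24 cytoplasmic dynein genes and 1 of 15 axonemal dynein heavy chains. The median of their mean levels was 5.51 TPM, beside 4.02 TPM over protein-coding symbols and 0.034 TPM over all symbols. Together they took 0.51% ± 0.0043 (SD, n = 3) of all TPM. Tubulins supplied 2132 ± 11.7 TPM, cytoplasmic dynein genes 1890 ± 15.2 TPM, and kinesins with their light chains 789 ± 34.5 TPM (SD, n = 3). Light chains made up most of the dynein sum, at 1574 TPM.

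Tuba1b and Tubb5 supplied most of the tubulin message. Tuba1b, a general alpha tubulin, had 711, 718 and 707 TPM in replicates 1, 2 and 3, and Tubb5, the main beta tubulin of dividing cells, had 647, 651 and 656 TPM. Tuba1b gave 66.9% ± 0.65 of the alpha sum and Tubb5 65.3% ± 0.42 of the beta sum (SD, n = 3). The alpha genes summed to 1065 ± 18 TPM and the beta genes to 997 ± 4.87 TPM (SD, n = 3). The ratio of the alpha sum to the beta sum was 1.06, 1.09 and 1.05 in replicates 1, 2 and 3, so the alpha sum was the larger in 3 of 3 libraries.

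**Figure D1:**
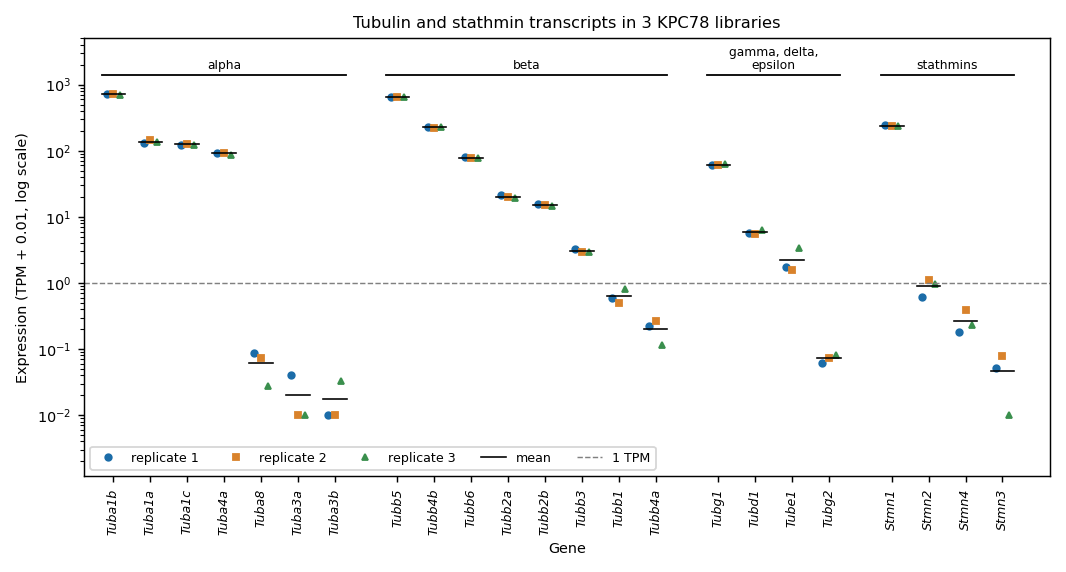
Expression of the 19 tubulin and 4 stathmin genes, with TPM + 0.01 on a log axis and genes ordered by mean within each family. Points are the 3 KPC78 libraries, black bars their means and the dashed line 1 TPM. Tuba1b and Tubb5, with means of 712 and 651 TPM, lie highest, and Tubg2, Tuba8, Tubb4a and Stmn3 lie below the dashed line in every library.

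Each member was set against a reference gene of its family by the log2 ratio of TPM + 1 within a library, fitted with limma over all 12013 genes that averaged 1 TPM or more. A ratio is called when its p, adjusted over all of those genes by Benjamini-Hochberg, is under 0.05, and a pseudocount of 1 makes ratios of low genes smaller. Fold values are instead means over libraries of the TPM ratio without a pseudocount. A p-value printed beside a fold belongs to the log2 ratio of TPM + 1. Tuba1b, Tubb5, Tubg1, Stmn1, Klc1 and Dynll1 were each the highest gene of their own family. No member can be called above such a reference, so those counts describe the choice of reference. All tests against 1 reference gene share that gene's spread, and pooling over genes treats it as independent between them. The p-values can thus be too small and the intervals too narrow. For Tubb4b against Tubb5 the adjusted p was 5.37e-11 with pooling and 0.00023 with the spread of its ratio alone (limma). Among alpha tubulins, 0 of 3 tested members were above Tuba1b and 3 below, where 1.64% of all genes were above and 98.2% below. Tuba1a, an alpha tubulin prominent in the developing brain, had 129, 145 and 134 TPM and was 5.25 ± 0.29-fold below Tuba1b (SD, n = 3). Tuba1c had 123, 129 and 124 TPM and was 5.69 ± 0.11-fold below it. Both were highest in replicate 2, and the lowest Tuba1a value, 128.71 TPM, lay just above the highest Tuba1c value, 128.68 TPM. Tuba4a, whose product ends without the usual tyrosine, had 93.7, 93.7 and 87.0 TPM. Tuba3a and Tuba3b, testis isotypes, and Tuba8 stayed below 0.1 TPM in every library.

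Tuba1a, Tuba1b and Tuba1c share most of their sequence. Their genes lie at chr15:98949837-98953703 (minus strand), chr15:98931425-98934565 (minus strand) and chr15:99029891-99038110 (plus strand), in that order, by GENCODE M21 on GRCm38. The coding sequences of Tuba1a and Tuba1b are 98.3% identical. Of the 31-base words of the Tuba1b transcript 86.0% also occur in transcripts of other genes, with 78.6% for Tuba1a and 63.9% for Tuba1c. Kallisto splits such reads by its model, so the 3 levels are uncertain. Their sum was 973 ± 16.0 TPM (SD, n = 3), and it is also open to the split. Of the 31-base words of Tuba1b 66.8% occur in AC157548.1, a gene outside the sum. For Tuba4a 51.8% of the 31-base words occur in other genes, mostly in Stk16, so its level is uncertain too.

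Beta isotypes differed over a wide range. Tubb4b, a broadly expressed isotype also used in cilia, had 229, 224 and 230 TPM and was 2.86 ± 0.047-fold below Tubb5 (SD, n = 3; adjusted p = 5.37e-11, limma). Tubb6 had 80.2, 78.2 and 78.4 TPM. Tubb2a had 21.2, 19.8 and 19.2 TPM, and its close relative Tubb2b 15.7, 15.3 and 14.7 TPM. Tubb2a exceeded Tubb2b 1.32 ± 0.023-fold, in 3 of 3 libraries, although their coding sequences are 96.5% identical and 56.4% of the 31-base words of Tubb2a are shared, mostly with Tubb2b. Tubb3, the class III isotype used as a neuronal marker and also reported in carcinomas, had 3.25, 2.97 and 2.97 TPM. It was 213 ± 12.3-fold below Tubb5 in TPM (SD, n = 3), with a fitted log2 ratio of TPM + 1 of -7.33 (adjusted p = 2.57e-12, limma). Of 5 tested isotypes 0 were above Tubb5 and 5 below, where 1.80% of all genes were above and 98.1% below. Tubb1, the platelet isotype, and Tubb4a, a brain isotype, had means of 0.62 and 0.19 TPM and were not tested.

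Beta isotypes are told apart mainly by their carboxy-terminal tails, acidic ends to which cells add glutamate chains. The last 60 coding bases, stop codon included, are shown for 5 of the 6 detected isotypes, without Tubb6, 5′ to 3′ on the coding strand from GENCODE M21. Capitals mark in-frame GAA and GAG codons, which encode glutamate.
Tubb5: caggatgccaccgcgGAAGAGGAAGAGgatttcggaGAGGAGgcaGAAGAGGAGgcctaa
Tubb4b: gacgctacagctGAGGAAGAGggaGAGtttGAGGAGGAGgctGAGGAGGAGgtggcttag
Tubb2a: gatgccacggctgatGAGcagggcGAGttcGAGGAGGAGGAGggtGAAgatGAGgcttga
Tubb2b: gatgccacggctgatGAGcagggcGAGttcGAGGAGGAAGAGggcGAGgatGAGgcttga
Tubb3: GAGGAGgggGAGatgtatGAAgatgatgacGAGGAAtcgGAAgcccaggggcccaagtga
The tail windows hold 9 glutamate codons in Tubb5, 10 in Tubb4b, 8 each in Tubb2a and Tubb2b, and 7 in Tubb3. Tubb5 lies at chr17:35833921-35838306 on the minus strand and Tubb4b at chr2:25222160-25224702 on the minus strand. Of the 31-base words of the Tubb4b transcript 70.4% are shared with other genes, mostly with its pseudogene Tubb4b-ps1, which was listed at 0.16 TPM in the mean.

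Tubg1, the gamma tubulin of the centrosome, had 61.2, 59.99 and 63.7 TPM, while its near copy Tubg2, 93.3% identical in coding sequence, stood at 0.063 ± 0.0098 TPM (SD, n = 3). Tubd1 and Tube1, the delta and epsilon tubulins needed for centriole triplets, were both below Tubg1, where 19.3% of all genes were above and 77.7% below. Tubd1 was 10.6 ± 0.38-fold below it (SD, n = 3). Tube1 had 1.76, 1.58 and 3.32 TPM, with replicate 3 above the other libraries. Stmn1, which sequesters tubulin dimers and is high in dividing cells, had 248, 235 and 236 TPM. Stmn2, Stmn3 and Stmn4, its neuronal relatives, had means of 0.88, 0.037 and 0.26 TPM. None of them averaged 1 TPM, so 0 were tested against Stmn1, where 4.31% of all genes were above and 95.1% below. Stmn2 passed 1 TPM in replicate 2 alone, at 1.08 TPM. A share of 42.6% of the 31-base words of Stmn1 also occurs in other genes.

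Mitotic kinesins were detected for 12 of 13 genes, where 55.4% of all protein-coding symbols were detected, and summed to 313 ± 10.54 TPM (SD, n = 3). Kif23, the centralspindlin motor of cytokinesis, was the highest with 95.1, 91.2 and 91.7 TPM. Kif20a, which brings the chromosomal passenger complex to the spindle midzone, had 52.1, 51.5 and 52.9 TPM. Of the 31-base words of Kif20a 32.6% also occur in Cdc23, so its level depends in part on how shared reads were split. Kif22, a chromosome-bound kinesin, had 29.0, 29.3 and 28.8 TPM. Kif11, the kinesin-5 that pushes spindle poles apart, had 26.5, 23.0 and 25.9 TPM. These motors kept the same order in all 3 libraries, with no overlap between neighbours. The testis gene Kif2b was listed at 0 in every library.

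Against Kif11, 3 members were higher and 8 lower, where 43.0% of all genes were higher and 51.6% lower. Kif23 was 3.70 ± 0.23-fold above Kif11 (SD, n = 3; adjusted p = 3.80e-10, limma) and Kif20a 2.08 ± 0.14-fold above it (adjusted p = 1.72e-08, limma). Kif22 was above Kif11 by a log2 ratio of 0.20 (adjusted p = 0.0064, limma), which did not pass when the spread of its ratio was taken alone (adjusted p = 0.098, limma). Kifc1, a minus-end motor that clusters extra centrosomes in cancer cells, had 23.5, 21.9 and 23.7 TPM, and Kif2c, a microtubule depolymerase of the centromere, 23.9, 20.9 and 21.7 TPM. Kifc1 was below Kif11 by a log2 ratio of -0.12 (adjusted p = 0.046, limma). That call was lost without replicate 1 (adjusted p = 0.22, limma) or without replicate 3 (adjusted p = 0.19, limma). It was also lost with no filter on low values, with no trend of spread on level, and with the spread of its ratio alone (adjusted p = 0.054, 0.074 and 0.062, limma). Kif2c was below Kif11 by -0.17 on the log2 scale (adjusted p = 0.0078, limma), and this was lost without replicate 3 (adjusted p = 0.11, limma). Of the 31-base words of Kifc1 64.8% also occur in other genes, mostly in Kifc5b, which was listed at 6.58 ± 0.15 TPM (SD, n = 3).

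The remaining mitotic members were lower. Kif20b, needed for late cytokinesis, had 23.3, 19.5 and 19.9 TPM. Kif18b had 13.04, 10.9 and 14.8 TPM, Kif18a, which dampens chromosome movements at the metaphase plate, 11.01, 10.1 and 10.4 TPM, and the chromokinesin Kif4 10.4, 10.4 and 11.02 TPM. The values of Kif18a and Kif4 overlapped. Kif15, which can stand in for Kif11, had a mean of 9.27 ± 1.30 TPM, and Kif14, a kinesin of cytokinesis, 4.69 ± 0.23 TPM (SD, n = 3). Kif15 was 2.74 ± 0.37-fold below Kif11 and Kif14 5.37 ± 0.46-fold below it. Proliferation genes outside the families were present beside them, with 8 of 8 listed genes detected, where 55.4% of all protein-coding symbols were. Among the 8 were Top2a at 134 ± 11.2 TPM and Cdk1 at 125 ± 5.31 TPM (SD, n = 3).

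**Figure D2:**
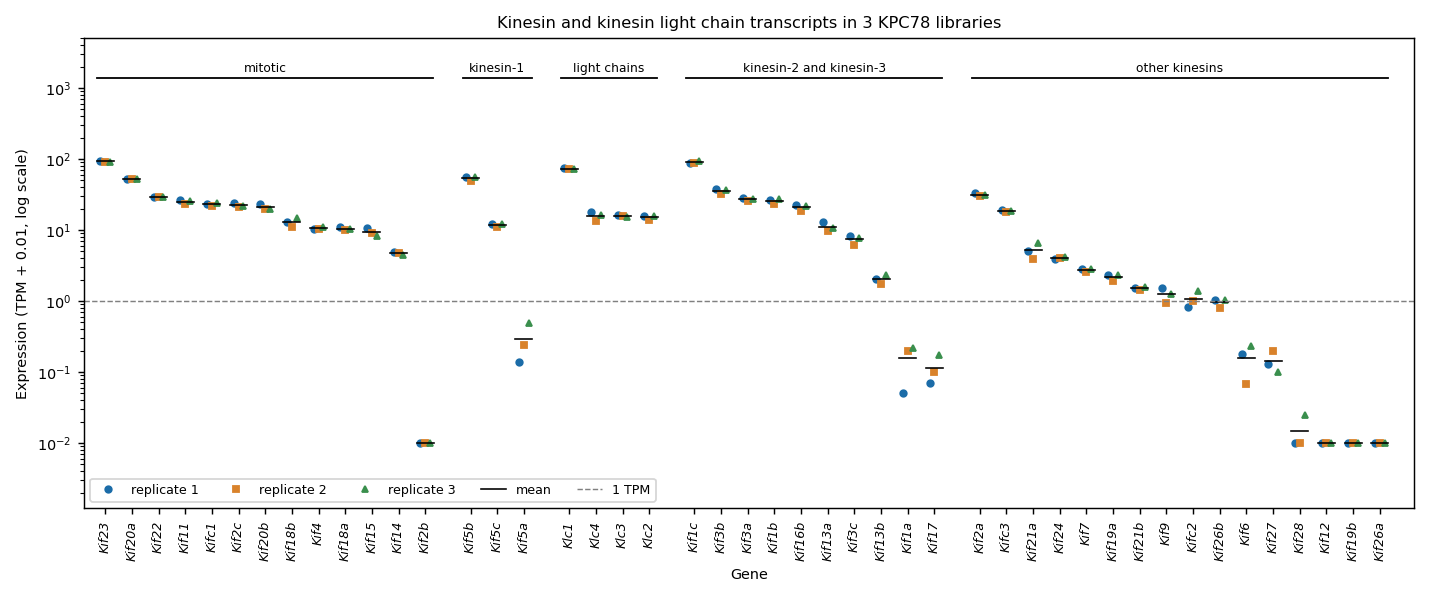
Expression of the kinesins and kinesin light chains, with TPM + 0.01 on a log axis and genes ordered by mean within each role. Points are the 3 KPC78 libraries, black bars their means and the dashed line 1 TPM. Kif23 and Kif1c lie highest, with means of 92.6 and 90.9 TPM, and Kif2b, Kif12, Kif19b and Kif26a lie at the floor that marks 0 TPM.

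Promoters of mitotic genes are known for 2 elements, the cell cycle genes homology region (CHR), bound by the MuvB complex, and the CCAAT box, bound by NF-Y. They were searched in RefSeq promoter windows of GRCm38.p6, from 250 bases before to 50 bases after the annotated start, as TTTGAA or TTCGAA and as CCAAT, on both strands, with the motifs chosen after the expression values were seen. The table held windows for 77 of the 108 genes. A CHR motif was found in 10 of 11 windows of detected mitotic kinesins, in 4 of 24 windows of other kinesins, in 13.8% of the 11367 windows of detected genes and in 19.2% of all 32851 windows. A CCAAT motif was found in 7 of those 11 windows, in 38.5% of windows of detected genes and in 37.4% of all windows. Both motifs were found in 7 of those 11 windows, in 5.81% of windows of detected genes and in 7.52% of all. No CHR motif overlapped a CCAAT motif in the mitotic windows. A match describes the letters and not a bound site, and no binding was measured. The 3 windows shown belong to the mitotic kinesins of highest level whose window could be printed, 5′ to 3′ on the strand of the gene, with CHR and CCAAT motifs in capitals. They are Kif23 at chr9:61946750-61947049 (minus strand), Kif22 at chr7:127042371-127042670 (minus strand) and Kif11 at chr19:37376132-37376431 (plus strand).
Kif23: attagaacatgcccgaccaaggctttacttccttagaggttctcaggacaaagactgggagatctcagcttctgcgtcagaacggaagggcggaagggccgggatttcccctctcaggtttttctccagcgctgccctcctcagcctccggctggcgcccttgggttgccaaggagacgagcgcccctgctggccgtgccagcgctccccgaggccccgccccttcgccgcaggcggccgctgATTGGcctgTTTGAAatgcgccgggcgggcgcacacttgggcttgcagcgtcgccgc
Kif22: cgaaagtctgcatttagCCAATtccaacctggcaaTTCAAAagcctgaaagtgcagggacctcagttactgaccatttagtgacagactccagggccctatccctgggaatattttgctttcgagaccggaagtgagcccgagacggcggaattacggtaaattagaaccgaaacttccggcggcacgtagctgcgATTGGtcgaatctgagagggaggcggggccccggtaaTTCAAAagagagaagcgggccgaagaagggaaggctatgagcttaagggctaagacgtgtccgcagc
Kif11: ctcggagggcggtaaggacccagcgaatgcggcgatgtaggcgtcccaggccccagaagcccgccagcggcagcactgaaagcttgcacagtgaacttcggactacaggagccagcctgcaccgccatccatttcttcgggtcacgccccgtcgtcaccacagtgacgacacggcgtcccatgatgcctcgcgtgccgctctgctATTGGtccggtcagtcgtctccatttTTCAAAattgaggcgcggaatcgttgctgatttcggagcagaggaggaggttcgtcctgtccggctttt
The Kif23 window has 1 CHR and 1 CCAAT motif, the Kif22 window 2 of each and the Kif11 window 1 of each.

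Among transport kinesins, Kif1c was the highest. Kif1c, a kinesin-3 that carries integrin vesicles in migrating human cells, had 89.1, 88.9 and 94.7 TPM. Kif5b, the widely expressed motor chain of conventional kinesin, had 55.2, 49.6 and 55.1 TPM. Kif1c exceeded Kif5b 1.71 ± 0.089-fold (SD, n = 3; adjusted p = 8.53e-07, limma), in 3 of 3 libraries. Of 18 kinesins outside the mitotic list tested against Kif5b, 1 was higher, Kif1c, and 17 lower, where 22.2% of all genes were higher and 73.7% lower.

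Kinesin-1 was led by the general forms of its subunits. Kif5b gave 81.5% ± 0.33 of the summed Kif5 TPM (SD, n = 3). Kif5c, enriched in neurons, had 12.1, 10.97 and 12.3 TPM, or 4.52 ± 0.036-fold less than Kif5b (SD, n = 3; adjusted p = 2.81e-09, limma), and Kif5a, the neuron-specific form, had a mean of 0.28 TPM. Klc1, the main light chain that links kinesin-1 to cargo, had 74.1, 72.7 and 72.3 TPM and made up 61.0% ± 1.74 of the light chain sum (SD, n = 3). Klc2, Klc3 and Klc4 were all below Klc1, where 16.2% of all genes were above and 81.3% below, with means of 15.1, 15.8 and 15.9 TPM whose values overlapped. The light chain sum was 1.83 ± 0.072 times the Kif5 sum (SD, n = 3).

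The other detected kinesin-2 and kinesin-3 motors were below Kif5b, and Kif1a and Kif17 were not detected. Kif3b had 38.3, 32.2 and 37.1 TPM and Kif3a, its partner in the motor of cilia and Golgi traffic, 28.1, 26.0 and 27.3 TPM, a ratio of 1.32 ± 0.070 (SD, n = 3). Their adaptor Kifap3 stood at 24.8 ± 1.22 TPM (SD, n = 3). Kif3c, a neuron-enriched form, had a mean of 7.35 TPM, and 44.0% of its 31-base words also occur in other genes. Kif1b, a carrier of mitochondria and vesicle precursors, had a mean of 25.8 ± 2.54 TPM, Kif16b, a motor of early endosomes, 21.1 ± 2.22 TPM, Kif13a, a motor of recycling endosomes, 11.2 ± 1.78 TPM and Kif13b 2.04 ± 0.28 TPM (SD, n = 3). Kif1a, the axonal motor of synaptic vesicle precursors, and Kif17, a neuronal and ciliary kinesin-2, stood at 0.15 and 0.10 TPM.

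Of 16 other kinesins 7 were detected, where 55.4% of all protein-coding symbols were. Kif2a, a microtubule depolymerase, had 33.1, 30.5 and 31.1 TPM, and Kifc3, a minus-end motor found at cell junctions, 19.2, 17.6 and 18.3 TPM. Kif21a followed with 5.01, 3.94 and 6.61 TPM, Kif24, which restrains cilium growth, with 3.999 ± 0.13 TPM, and Kif7, a Hedgehog regulator at the cilium tip, with 2.73 ± 0.17 TPM (SD, n = 3). Kif19a had a mean of 2.18 TPM and Kif21b 1.495 TPM. Just under the detection rule were Kif9 with 1.54, 0.93 and 1.23 TPM, Kifc2 with 0.80, 1.00 and 1.39 TPM and Kif26b with 1.02, 0.79 and 1.02 TPM. Kif6, Kif27 and Kif28 had means of at most 0.15 TPM, and Kif12, Kif19b and Kif26a were listed at 0 in every library.

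**Figure D3:**
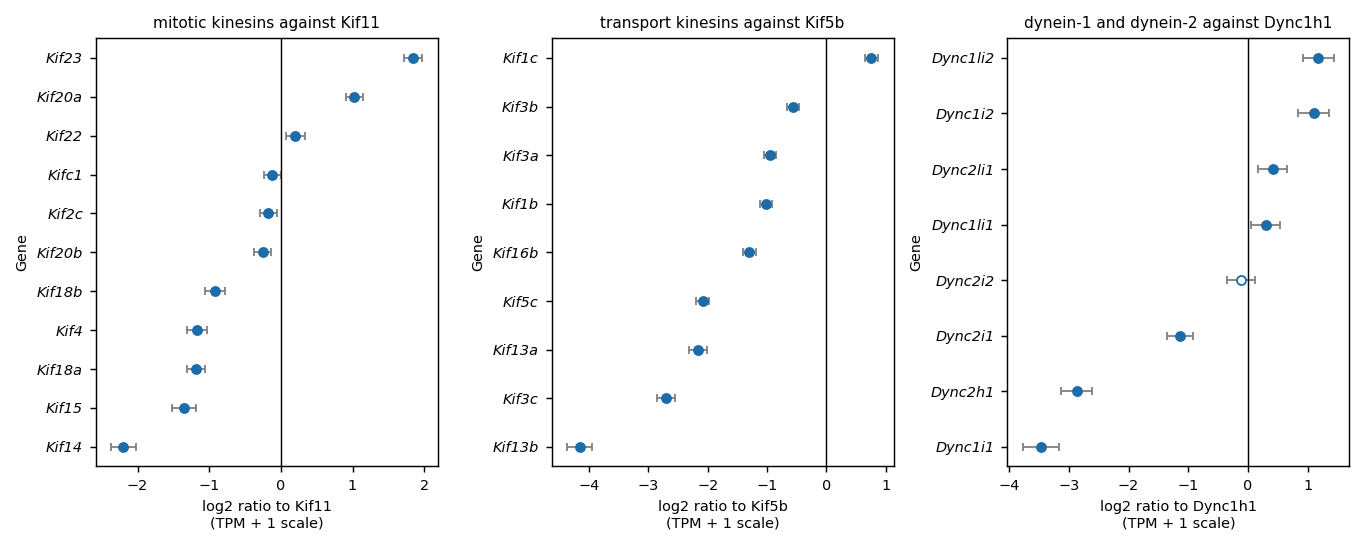
Log2 ratio of TPM + 1 of each tested member to the reference gene of its family, with 95% confidence intervals from limma, for mitotic kinesins against Kif11, transport kinesins against Kif5b and dynein genes against Dync1h1. The intervals use the spread pooled over genes and can be too narrow. Filled points are called at an adjusted p under 0.05, and the open point, Dync2i2, is not. Kif23, Kif1c and Dync1li2 lie farthest right of 0 in their panels.

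The dynein-1 complex was detected for 5 of 5 chains, where 55.4% of all protein-coding symbols were detected. Its heavy chain was below most of its partners. Dync1h1, the motor subunit at chr12:110601452-110666945 on the plus strand, had 37.0, 28.0 and 34.6 TPM. Dync1i2, the general intermediate chain that binds dynactin, had 73.7, 69.0 and 72.5 TPM, and Dync1li2 and Dync1li1, light intermediate chains that bind cargo adaptors, had 77.7, 72.5 and 77.6 TPM and 39.7, 41.8 and 40.6 TPM. Against Dync1h1, 3 of these chains were higher and 1 lower, where 32.4% of all genes were higher and 57.5% lower. Dync1li2 was 2.31 ± 0.25-fold and Dync1i2 2.18 ± 0.25-fold above it (SD, n = 3), each in 3 of 3 libraries. Dync1li1 was above it by a log2 ratio of 0.29 with a 95% interval from 0.054 to 0.53 (adjusted p = 0.018, limma), and this call was lost without replicate 3 (adjusted p = 0.25, limma) or when the spread of the ratio was taken alone (adjusted p = 0.18, limma). Dync1i1, the neuronal intermediate chain, was the lower one, with 1.83, 2.07 and 2.35 TPM.

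Dync1h1 was low in replicate 2, and its transcript of 14342 bases is among the longest of the members. In replicate 2 the log2 level of TPM + 1 deviated from the mean of the other libraries by -0.34 for Dync1h1. Over the 16 members of 5000 bases or more the median deviation was -0.18, beside -0.18 over all 2049 genes of that length. Over the 23 members under 2500 bases it was -0.022, beside -0.029 over all such genes. Spearman's rho between transcript length and this deviation was -0.48 over 65 members and -0.41 over 10945 genes, values across genes of the same libraries. The median of the long members in replicate 2 was thus that of other long transcripts, while Dnah14 deviated the other way. Every ratio of a short chain to Dync1h1 carries this difference. The reference genes Kif11 and Kif5b deviated in replicate 2 by -0.18 and -0.15, so ratios of short members to them can carry it too. The part of this difference in the ratios was not tested beyond leaving replicate 2 out. Without replicate 2 the log2 ratio of Kif22 to Kif11 was 0.14, against 0.20 with all libraries. The ratio of Dync1li1 to Dync1h1 was then 0.16, against 0.29, and that of Dync2li1 to Dync1h1 0.29, against 0.41. Both ratios to Dync1h1 were still called.

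**Figure D4:**
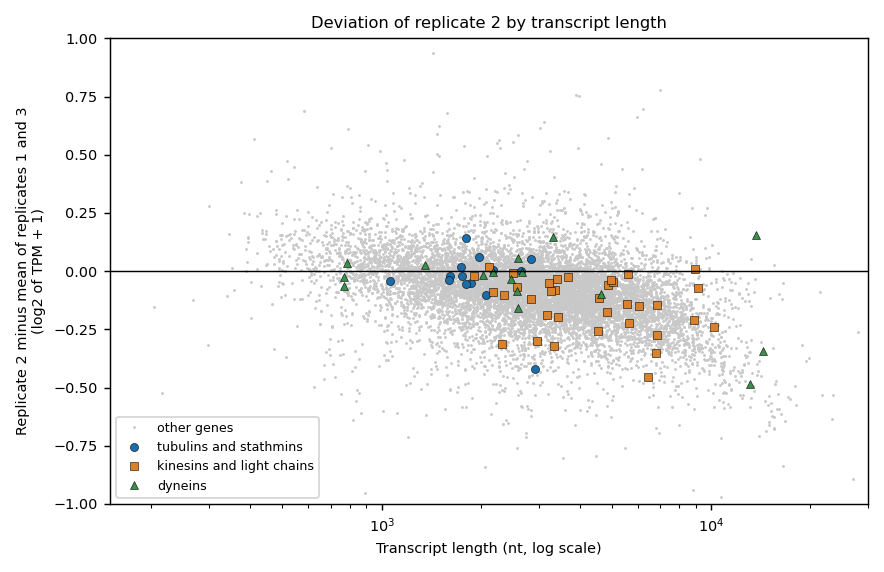
Deviation of replicate 2 from the mean of replicates 1 and 3, in log2 of TPM + 1, against transcript length on a log axis, for genes that averaged 1 TPM or more. Grey points are other genes, of which 8 lie outside the axes, and coloured symbols are the members by family. Members of 5000 bases or more lie mostly below 0, with Dnah14 and, barely, Kif14 above 0. Members under 2500 bases lie closer to 0.

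Dynein-2, the retrograde motor of cilia, was detected for 4 of 4 chains, with unequal levels, where 55.4% of all protein-coding symbols were detected. Dync2li1 had 45.0, 44.8 and 43.0 TPM, Dync2i2 29.7, 31.1 and 30.1 TPM and Dync2i1 17.1, 12.8 and 13.5 TPM. Dync2h1, the motor subunit, was lowest with 4.11, 2.72 and 4.30 TPM, 9.12 ± 1.14-fold below Dync1h1 (SD, n = 3). Dync2li1 was above Dync1h1 by a log2 ratio of 0.41 (adjusted p = 0.0010, limma), a call lost without replicate 3 (adjusted p = 0.10, limma) and with the spread taken alone (adjusted p = 0.091, limma). Dync2i2 could not be told from Dync1h1, with a log2 ratio of -0.12 and a 95% interval from -0.35 to 0.11 (adjusted p = 0.32, limma). Without replicate 2 that ratio was -0.25 (adjusted p = 0.0017, limma).

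Light chains were the most abundant dynein genes and summed to 1574 ± 6.71 TPM (SD, n = 3). Dynll1, the LC8 chain that also binds many partners outside dynein, had 657, 655 and 667 TPM, the highest level of its family. Of 11 tested light chains 0 were above it and 11 below, where 1.77% of all genes were above and 98.1% below. Dynlrb1, a roadblock chain, had 408, 422 and 414 TPM and was 1.59 ± 0.033-fold below Dynll1 (SD, n = 3; adjusted p = 8.54e-08, limma). Dynll2, whose coding sequence is 81.1% identical to that of Dynll1, had 74.8, 71.5 and 71.7 TPM, 9.08 ± 0.27-fold less (SD, n = 3). Dynlt3, a Tctex chain, had 86.4, 85.9 and 86.0 TPM, the smallest spread of the detected members at a coefficient of variation of 0.33%. Dynlt2b had a mean of 25.2 ± 1.35 TPM (SD, n = 3), and Dynlt2a2, Dynlt2a3 and Dynlt4 had means of 1.39, 1.42 and 1.07 TPM. Dynlrb2, enriched in ciliated tissue, had a mean of 0.11 TPM, and Dynlt5 was listed at 0.

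Dynlt1 is present in the mouse as 4 near-identical copies on chromosome 17. Dynlt1b, at chr17:6430112-6436296, had 191, 185 and 185 TPM, Dynlt1f, at chr17:6646602-6655900, 109, 106 and 114 TPM, Dynlt1a 8.15, 9.03 and 7.97 TPM and Dynlt1c 7.55, 5.49 and 5.14 TPM. The coding sequences of Dynlt1a, Dynlt1c and Dynlt1f are identical, and that of Dynlt1b differs from them at 1 base. Between 76.6% and 96.0% of their 31-base words occur in other genes, so their separate levels are uncertain. Their sum was 311 ± 4.94 TPM (SD, n = 3), and it too depends on the split, since the transcripts used here are 3321 bases long for Dynlt1a and 2589 for Dynlt1c but 771 for Dynlt1b and Dynlt1f. The named pseudogene Dynlt1-ps1, outside the sum, was listed at 33.3, 57.5 and 44.7 TPM. The first 60 coding bases are shown 5′ to 3′ because they hold that 1 difference, at coding base 21, in capitals.
Dynlt1b: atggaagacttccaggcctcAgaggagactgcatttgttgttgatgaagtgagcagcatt
Dynlt1f, Dynlt1a and Dynlt1c: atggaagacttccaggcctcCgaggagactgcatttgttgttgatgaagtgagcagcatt

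**Figure D5:**
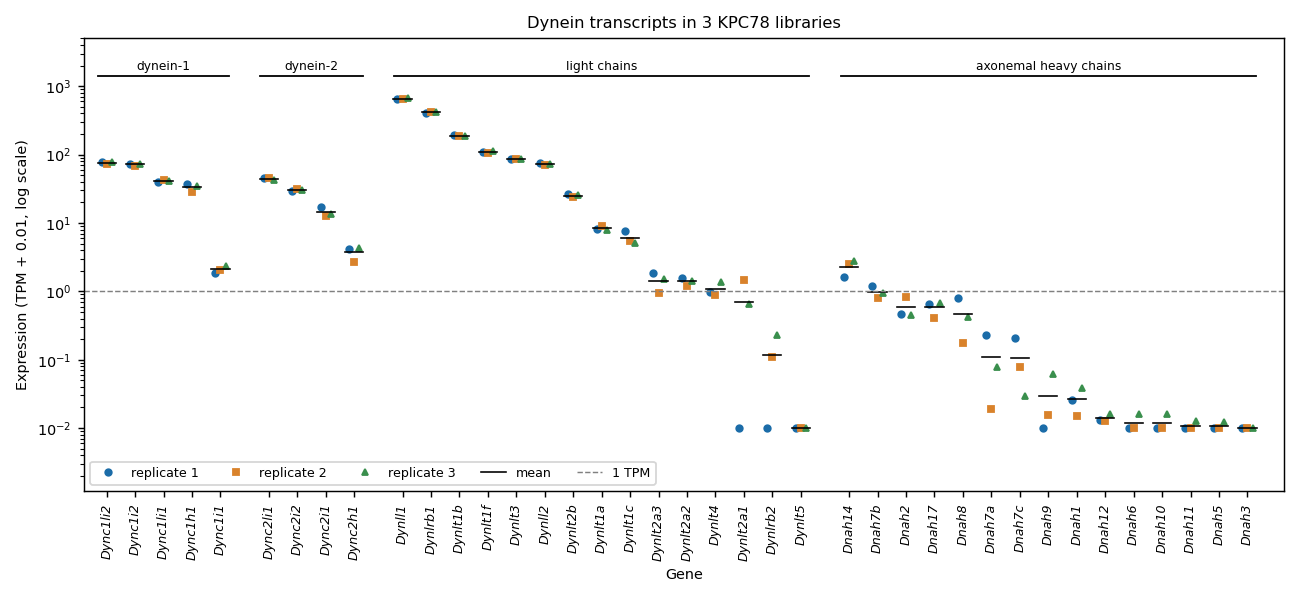
Expression of dynein genes, with TPM + 0.01 on a log axis and genes ordered by mean within each class. Points are the 3 KPC78 libraries, black bars their means and the dashed line 1 TPM. The light chain Dynll1 stands near 660 TPM, the dynein-1 chains other than Dync1i1 between 28.0 and 77.7 TPM, and the axonemal heavy chains other than Dnah14 near or below the dashed line.

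Axonemal dynein heavy chains, the motors of beating cilia, were nearly absent, with 1 of 15 detected, where 55.4% of all protein-coding symbols were. Their sum was 5.08 ± 0.32 TPM (SD, n = 3). The detected one was Dnah14, with 1.61, 2.48 and 2.72 TPM. Dnah7b had 1.202, 0.78 and 0.94 TPM, and Dnah7a, Dnah7b and Dnah7c share 56.5% to 63.7% of their 31-base words with other genes. Dnah5, Dnah9 and Dnah11, outer arm chains of motile cilia, had means of at most 0.019 TPM, and Dnah3 was listed at 0. Dnah2, Dnah8 and Dnah17 had means of 0.57, 0.46 and 0.57 TPM, and Dnah1, Dnah6, Dnah10 and Dnah12 at most 0.016 TPM. Markers of multiciliated cells were mixed, with 2 of 6 detected and a summed level from 16.3 to 18.3 TPM. The marker list also held Dnaic1 and Dnaic2, which appear under the newer names Dnai1 and Dnai2 and are not in that count. Dnai2 was detected, with a mean of 4.63 TPM, and Dnai1 was not, with a mean of 0.0046 TPM. Foxj1, the master factor of motile cilia, had a mean of 0.18 TPM, and Tekt1, Rsph1 and Deup1 were listed at 0 in every library, while Cfap126 stood at 13.6 ± 0.58 TPM and Ccdc39 at 3.25 ± 0.56 TPM (SD, n = 3).

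Members known for other tissues were uneven. Of 12 neuron-enriched members 6, or 50%, were detected, namely Tubb2b, Kif5c, Kif3c, Tubb3, Dync1i1 and Kif21b. That share is near the 55.4% of all protein-coding symbols that were detected. Neuronal markers outside the families had 2 of 7 detected, Snap25 at 2.64 ± 0.22 TPM and Syp at 1.83 ± 0.25 TPM (SD, n = 3), with a summed level from 4.78 to 5.32 TPM. Rbfox3, the defining neuronal marker, had a mean of 0.026 TPM. Of 8 members enriched in testis, platelets or muscle, 1 was detected, Klc3 at 15.8 ± 0.60 TPM (SD, n = 3), whose 31-base words are shared with the overlapping gene Ercc2 at 23.9%. None of 5 male germ cell markers was detected, at summed levels of 0.045, 0.31 and 0.028 TPM, with Prm1 and Tnp1 listed at 0. The part of other cell types in these levels was not tested.

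The partners of these motors were broadly present. Of 27 dynactin, LIS1 and dynein adaptor genes 25 were detected, where 55.4% of all protein-coding symbols were. Their median mean level was 52.5 TPM. The highest of this list were Capzb, Capza2, Actr10 and Dctn2, at 306 ± 8.16, 231 ± 4.02, 146 ± 4.69 and 134 ± 2.92 TPM (SD, n = 3). The adaptors Hook1 and Bicdl2 were below 1 TPM. Of genes named after their values were seen, Pafah1b1, which encodes the dynein activator LIS1, stood at 112 ± 3.46 TPM (SD, n = 3), and Actr1a and Actr1b at 49.5 and 63.6 TPM in the mean. Dctn1, the dynactin arm that touches microtubules, had 64.2, 55.4 and 65.5 TPM and was, as Dync1h1, lowest in replicate 2.

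Genes that fold, nucleate, bind or modify tubulin were detected in most cases, where 55.4% of all protein-coding symbols were detected. In the list of tubulin folding cofactors and gamma-tubulin ring genes 14 of 14 were detected, led by the cofactor Tbca at 238 ± 11.96 TPM (SD, n = 3) and by Tubgcp4, Tbcb and Arl2, at 54.7, 46.3 and 45.5 TPM in the mean. Of 26 microtubule-associated and plus-end genes 23 were detected, led by Mapre1, the plus-end tracker EB1, at 239 ± 7.40 TPM, Map4 at 80.1 ± 3.42 TPM, the spindle factor Tpx2 at 79.4 ± 0.89 TPM and Map7d1 at 72.5 ± 6.48 TPM (SD, n = 3). Dcx, the neuronal doublecortin, was listed at 0, and Map1a and Map7 were below 1 TPM. Of 21 genes listed under tubulin modification and severing 18 were detected, led by the tubulin deacetylases Hdac6 and Sirt2 at 53.4 and 53.3 TPM in the mean, and by Ttll5, a glutamylase, at 52.9 TPM, and Ttll12 at 35.2 TPM. Vash1, a tubulin carboxypeptidase, had a mean of 0.021 TPM, and the severing gene Fign was also below 1 TPM. The third undetected gene of that list, Tubal3, is an alpha-tubulin-like gene and not a modifying or severing enzyme. Of 14 kinesin cargo adaptors 13 were detected, led by Arl8b and Arl8a, which couple kinesin-1 to lysosomes, at 104 ± 3.62 and 72.6 ± 1.92 TPM (SD, n = 3), then Rhot1 and Rhot2 of mitochondria at 39.7 and 36.7 TPM in the mean.

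Replicate spread among the members was small for the abundant genes. Among the 49 members that averaged 10 TPM or more, the coefficient of variation was 3.77% in the median, beside 5.29% for the 8502 genes of that level in the table. The most variable of them were Kif13a at 16.0%, Dync2i1 at 15.9%, Kif18b at 15.1%, Klc4 at 14.4% and Dync1h1 at 14.0%, all lowest in replicate 2.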

How the data were processed

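Polyadenylated RNA of KPC78 cells was sequenced in 3 libraries, made with TruSeq chemistry per the labels' protocols. The authors deposited TPM per gene symbol, which the file headers credit to kallisto. Tools listed in the submitters' processing notes are kallisto 0.44.0 and bcl2fastq 2.19, with the build GRCm38.p6. The annotation release is not given in the sources used here, and TPM keeps no depth. Another 3 columns match no sample label and were not used. How the replicate cultures were separated is not stated, so p-values measure only the spread between these libraries.

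Ratios to a family's reference gene were fitted two-sided, as an intercept alone, by limma 3.58.1 under R 4.3.3, its empirical Bayes spread following a trend on level. The fit was also run on simulated data with noise drawn independently for each gene. Those data lacked the deviation of replicate 2 that long transcripts shared, so that run cannot speak for its effect. Detection needed 1 TPM in every library. Positions, lengths, coding sequences and 31-base words (kallisto's default length, both strands) came from the longest complete coding transcript in GENCODE M21, matched by symbol for 99 of 108 genes; promoters came from RefSeq (GRCm38.p6). Python 3.11.15, pandas 2.3.3 and Biopython 1.88 were used. Named were all detected genes of short lists, the leading genes of long ones, reference genes and the 5 most variable; a few others were named after their values were seen. Members, lists and tests were chosen with earlier results of these data known. Alternatives were other pseudocounts, filters, detection rules and spreads, rescaled TPM, geometric means and leaving out each replicate.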

Additional observations from a re-analysis of the deposited data

How the results depend on the processing

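None of the 62 ratios changed direction with pseudocounts of 0.1 and 5 TPM, no filter, no trend, TPM rescaled after removing ribosomal protein and mitochondrial genes, or each replicate left out in turn. Without replicate 3, Kifc2 and Dynlt4 averaged under 1 TPM and gave no ratio. Of the 61 calls, those of Kifc1, Kif2c, Dync1li1 and Dync2li1 were lost under at least 1 of these settings, and Dync2i2 gained a call without replicate 2. With the spread of each ratio taken alone, chosen after seeing the data, 4 calls were lost and 5 of the 8 members called higher passed. In the ratios to Dync1h1 the fitted spread was almost wholly that pooled over genes. Without the filter on low values 89 members were called lower, against 53, since more genes were tested. At 0.5 TPM 2 stathmins and 2 axonemal heavy chains were detected, at 5 TPM 2 of the other kinesins and 0 axonemal heavy chains, and with rescaled TPM 2 axonemal heavy chains. Rescaling set the alpha tubulin sum at 1454 TPM and the beta sum at 1361 TPM, by its construction. Among members of at least 10 TPM the rho of length with the deviation of replicate 2 was -0.63. No paired analysis was possible because there is only 1 group, and each ratio was taken inside a library.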

Other observations

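Relatives of the motor genes outside the naming rule were also measured. Cenpe, the kinesin-7 of the kinetochore, stood at 13.6 ± 1.92 TPM, and Kifbp, a kinesin-binding protein, at 19.7 ± 1.89 TPM (SD, n = 3). Of the dynein chains under other names, Dnal4 had a mean of 25.6 TPM, Dnal1 7.44 TPM and Dnai2 4.63 TPM, while Dnai1 and Dnali1 stood at 0.0046 and 0.11 TPM. Dynlt1-ps1, named as a pseudogene of the Dynlt1 copies, was listed at 33.3, 57.5 and 44.7 TPM in replicates 1, 2 and 3, a coefficient of variation of 26.8%, beside a coefficient of at most 3.38% for Dynlt1b and Dynlt1f. Kif22-ps, Kif4-ps and Tubb2a-ps2 were listed at 0 in every library. The sum of the 3 Dynlt2a copies was 3.40, 3.54 and 3.59 TPM, although Dynlt2a1 alone was listed at 0, 1.44 and 0.63 TPM.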
